A study of Arabidopsis lyrata with 3 samples.

Results

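Broad SEPALLATA3 (SEP3) domains of Arabidopsis lyrata that resolved into several summits were taken from 2 chromatin immunoprecipitation and sequencing (ChIP-seq) libraries of inflorescences. A domain was a window of at least 2000 bp in the replicate 1 list that overlapped, by at least 1 bp, 2 or more windows with a score of at least 1.6 in the replicate 2 list. The rule was met by 352 regions, which are 19.6% of the 1794 replicate 1 windows of that length. They were drawn from 93693 replicate 1 windows and 64504 replicate 2 windows in all. Members were chosen by the replicate 1 length and by the number and scores of the replicate 2 windows, so those values are described below without a test.

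Both ChIP libraries came from wild-type inflorescences carrying floral buds of stage 1 to 10 or 11, precipitated with a peptide antibody made against A. thaliana SEP3. Plants of replicate 1, and those of the single input DNA library, were vernalised for 7 to 10 weeks at 8 °C in days of 16 h light and 8 h dark. Plants of replicate 2 were vernalised equally long in days of 12 h light and 12 h dark, at 8 °C in the day and 4 °C in the night. All bolted at 18 to 22 °C in long days. Each cold regime has 1 ChIP library, so regime and library cannot be told apart, and nothing here measures variation between plants.

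SEP3 is a MADS-domain transcription factor that acts with the other floral organ identity proteins in the meristem and the developing organs of the flower. MADS-domain proteins bind DNA as dimers at a short AT-rich element known as the CArG box. In A. thaliana and in vitro, SEP3 joins such dimers into tetramers that can hold a pair of these elements with the DNA between them looped out. Several SEP3 summits close together on 1 stretch of chromatin are therefore of interest, but the window lists show only where signal was called and say nothing of loops. No genome sequence was used here, so the elements themselves were not searched.

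Each list gives windows with a start, an end, a summit (the position of the highest signal) and a score set by the authors. How the score is computed was not stated in the labels or the lists. Scores ran from 1.01 to 57.62 in replicate 1 and from 1.01 to 73.31 in replicate 2, with medians of 1.42 and 1.2. The smallest gap between neighbouring windows was 100 bp in either list, so signal separated by less stands as 1 window with 1 summit. Replicate 1 windows were the longer, with a median of 275 bp against 173 bp in replicate 2. The replicate 2 windows counted in the domains, all with a score of at least 1.6, had a median length of 596.5 bp. No length is given for the other windows of such a score, so this length is not read as particular to the domains. Read depth is unknown from the lists. All shares below carry 95% Wilson intervals, which cover counting error over windows only.

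Most domains held a pair of summits. There were 307 domains with 2, 42 with 3 and 3 with 4, together 752 replicate 2 windows, or 6.71% of the 11214 windows with a score of at least 1.6 in that list. No replicate 2 window was counted in 2 domains. The summit itself lay inside the replicate 1 window in 731 cases, and the other 21 belonged to windows that overlapped only an edge of the domain. Among the other broad windows, 825 overlapped 1 such replicate 2 window and 617 overlapped none, so that 65.6% of broad windows met at least 1. Over replicate 1 windows of every length that share was 11.6%. Overlap with 2 or more occurred in 0.635% of replicate 1 windows of every length and in 0.264% of those under 2000 bp.

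The share of windows with several summits was higher in the longer bands. A longer window has more room to overlap replicate 2 windows, and the rule uses both values, so this rise is description only. From 2000 to under 2500 bp, 125 of 963 windows were multi-summit domains (13.0%, interval 11.0 to 15.3%). From 2500 to under 3000 bp the share was 22.7% of 437, from 3000 to under 3500 bp 25.8% of 186, and from 3500 to under 4000 bp 37.9% of 103. At 4000 bp and more, 41 of 105 windows qualified (39.0%, interval 30.3 to 48.6%). The median length was 2728 bp for domains with several summits and 2426 bp for broad windows with 1. Domains with 3 summits had a median of 3445.5 bp and those with 2 had 2695 bp.

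**Figure D1:**
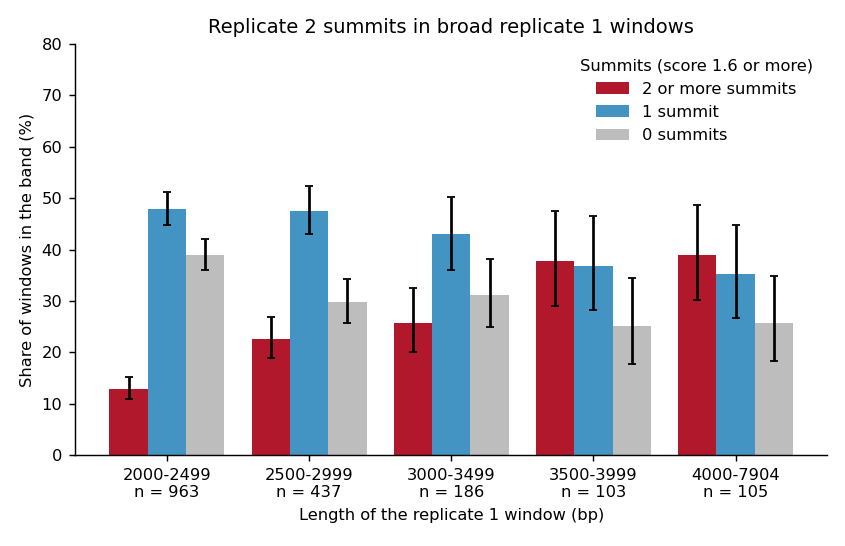
Share of broad replicate 1 windows (y axis, %) that held 2 or more, 1 or 0 replicate 2 summits of score 1.6 or more, by window length (x axis, bp, with the number of windows in each band). Bars start at 0 and error bars are 95% Wilson intervals. The multi-summit share goes from 13.0% in the shortest band to 39.0% in the longest, and longer windows have more room for summits.

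Under this rule, neighbouring summits stood a median of a little over 1 kb apart. Windows of the list are at least 100 bp apart and the domain length limits the spacing, so the rule sets part of this distance. Its median was 931 bp at a score minimum of 1.2 and 1401 bp at a length minimum of 3000 bp. No spacing is given for other neighbouring replicate 2 windows, so the distance is not read as particular to the domains. The 400 distances between neighbours had a median of 1213 bp (95% interval of the median 1138 to 1263 bp), quartiles of 887.75 and 1574.5 bp and a range from 376 to 5817 bp. Of them, 131 lay from 500 to under 1000 bp, 151 from 1000 to under 1500 bp and 70 from 1500 to under 2000 bp. Only 4 were under 500 bp, and 10 were 3000 bp or more. Between the windows of a pair there was a median of 476 bp in which replicate 2 had no window of score 1.6 or more, while replicate 1 had 1 unbroken window. In 127 of the 400 intervals (31.75%) a weaker replicate 2 summit lay between the pair. The counted replicate 2 windows covered a median of 45.6% of a domain's length.

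Summits did not fill the domains from edge to edge. The outermost summits of a domain were a median of 1323 bp apart, which was 48.8% of its length. The first summit stood a median of 598 bp from the left edge of the replicate 1 window and the last a median of 637 bp from the right edge. Across the 307 domains with 2 summits, spacing and domain length had a Spearman's rho of 0.33, a description over windows of the same libraries in which the length also limits the spacing. In the 42 domains with 3 summits the shorter of the 2 spacings was a median of 0.716 of the longer one, and in 8 domains the spacings differed by a factor of over 2. The leading summit was the middle one in 17 of these domains, an outer one in 23, and tied in 2.

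The second summit ranged from 0.0798 of the leading score to equal with it. The second score over the leading score had a median of 0.785 (95% interval of the median 0.760 to 0.816), with quartiles of 0.625 and 0.915. The second summit had a median score of 1.81 and the leading summit one of 2.48. In 42 domains (11.9%) the second summit reached less than 0.5 of the leading score, in 148 it reached 0.5 to under 0.8, in another 148 it reached 0.8 to under 1, and in 14 it was equal. The ratio is bounded from below by the score minimum, since a domain led by a weak summit can only have a second of like score. The lowest second score was 1.62 and the upper quartile of the leading score was 3.105. No domain led by a summit at or below that quartile could therefore fall under 0.5. The count of 42 is thus not read as a measure of how often 1 summit prevails. Domains under 0.5 were led by summits with a median score of 5, against 2.72 and 2.05 in the next 2 classes.

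**Figure D2:**
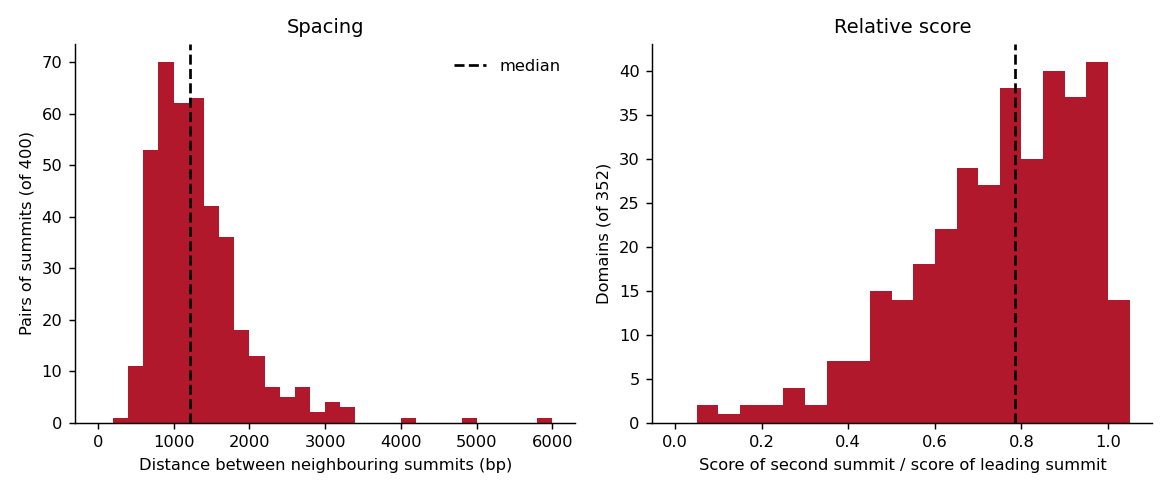
Left, distance between neighbouring replicate 2 summits of 1 domain (x axis, bp, in bins of 200 bp) against the number of pairs; the dashed line is the median of 1213 bp. Right, second over leading replicate 2 score against the number of domains, with the median of 0.785 dashed; the bin that begins at 1 holds the 14 domains with equal scores.

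At the limits of the rule the members shade into other windows. The shortest domain measured 2016 bp, and the longest replicate 1 window under the length minimum with 2 or more summits measured 1991 bp. Within 100 bp of the minimum there were 21 domains above it and 26 windows with several summits below it. The lowest second score in a domain was 1.62, shared by 60 domains, and the highest second score of a broad window outside the set was 1.56. A further 153 broad windows had a second score between 1.5 and that value.

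The 3 domains with 4 summits were all of modest score. On scaffold 3 from 12758704 to 12763676, replicate 1 scored 3.60 and the summits of replicate 2 scored 1.75, 1.68, 1.68 and 2.23 from left to right, 699, 1311 and 1210 bp apart. No annotated gene overlapped this domain, and the nearest, LOC9319663 and LOC9319664, stood 845 and 2761 bp from its edges. The domain on scaffold 5 from 3564573 to 3567707 scored 3.47 in replicate 1, with summits of 1.68, 2.29, 1.81 and 1.75. They followed one another at 1038, 868 and 916 bp, all in the same space beside LOC9313101. That is the most regular spacing among these 3. On scaffold 3 from 4571949 to 4577711, with a replicate 1 score of 3.47, the summits formed a left and a right pair. They scored 1.81, 1.75, 1.68 and 1.87, with 794 and 784 bp inside the pairs and 3301 bp between them, and the last stood inside LOC9320911. All genes named are annotated only by number and class, and all are protein-coding unless said otherwise. Coordinates are those of the replicate 1 window on the build that the authors' files call Araly1.

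The other 7 of these 10 domains held 3 summits each. They are those of highest summed replicate 2 score among the 42 with 3, so their high scores come from how they were picked. On scaffold 7 from 1468458 to 1474289, where replicate 1 scored 15.49, replicate 2 had summits of 1.87, 6.44 and 5.22 that were 1238 and 1007 bp apart. The replicate 1 summit was 6 bp from the last of these and 1001 bp from the leading one, so the libraries placed their highest point on different summits. The last had 0.811 of the leading score. The neighbouring domain from 1460955 to 1463330 scored 15.62 in replicate 1 and 6.32, 2.11 and 3.33 in replicate 2, with spacings of 700 and 886 bp. LOC9305072 lies between these 2 domains, 232 bp from the edge of one and 2344 bp from the edge of the other. Neither overlapped a gene.

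On scaffold 4, the domain from 1036734 to 1039334 scored 10.63 in replicate 1 and 7.24, 3.58 and 3.03 in replicate 2. Its leading summit was 946 bp outside LOC9316518 and the other 2 were inside that gene. Summits of 3.82, 4.06 and 2.17 made up the scaffold 6 domain from 5304631 to 5308181, which scored 3.58 in replicate 1. The whole of LOC9307621 lay within it, with the first summit inside the gene and the others beyond its end. On scaffold 5 from 17654640 to 17658393 replicate 1 scored 5.07 and the summits scored 3.94, 2.54 and 2.60, all more than 5 kb from a gene, the leading one at 5169 bp from it. The scaffold 1 domain from 1934929 to 1937135 was the most uneven of the 10. Replicate 1 scored 5.03, and the replicate 2 summits scored 1.68, 1.62 and 6.26, the last inside LOC9325615. The longest domain of all, 7904 bp on scaffold 2 from 10975648 to 10983551, filled most of the space between LOC9323088 and LOC9323089, whose ends were 534 and 53 bp from its edges. It scored 11.14 in replicate 1 and 2.36, 2.84 and 4.31 in replicate 2.

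**Figure D3:**
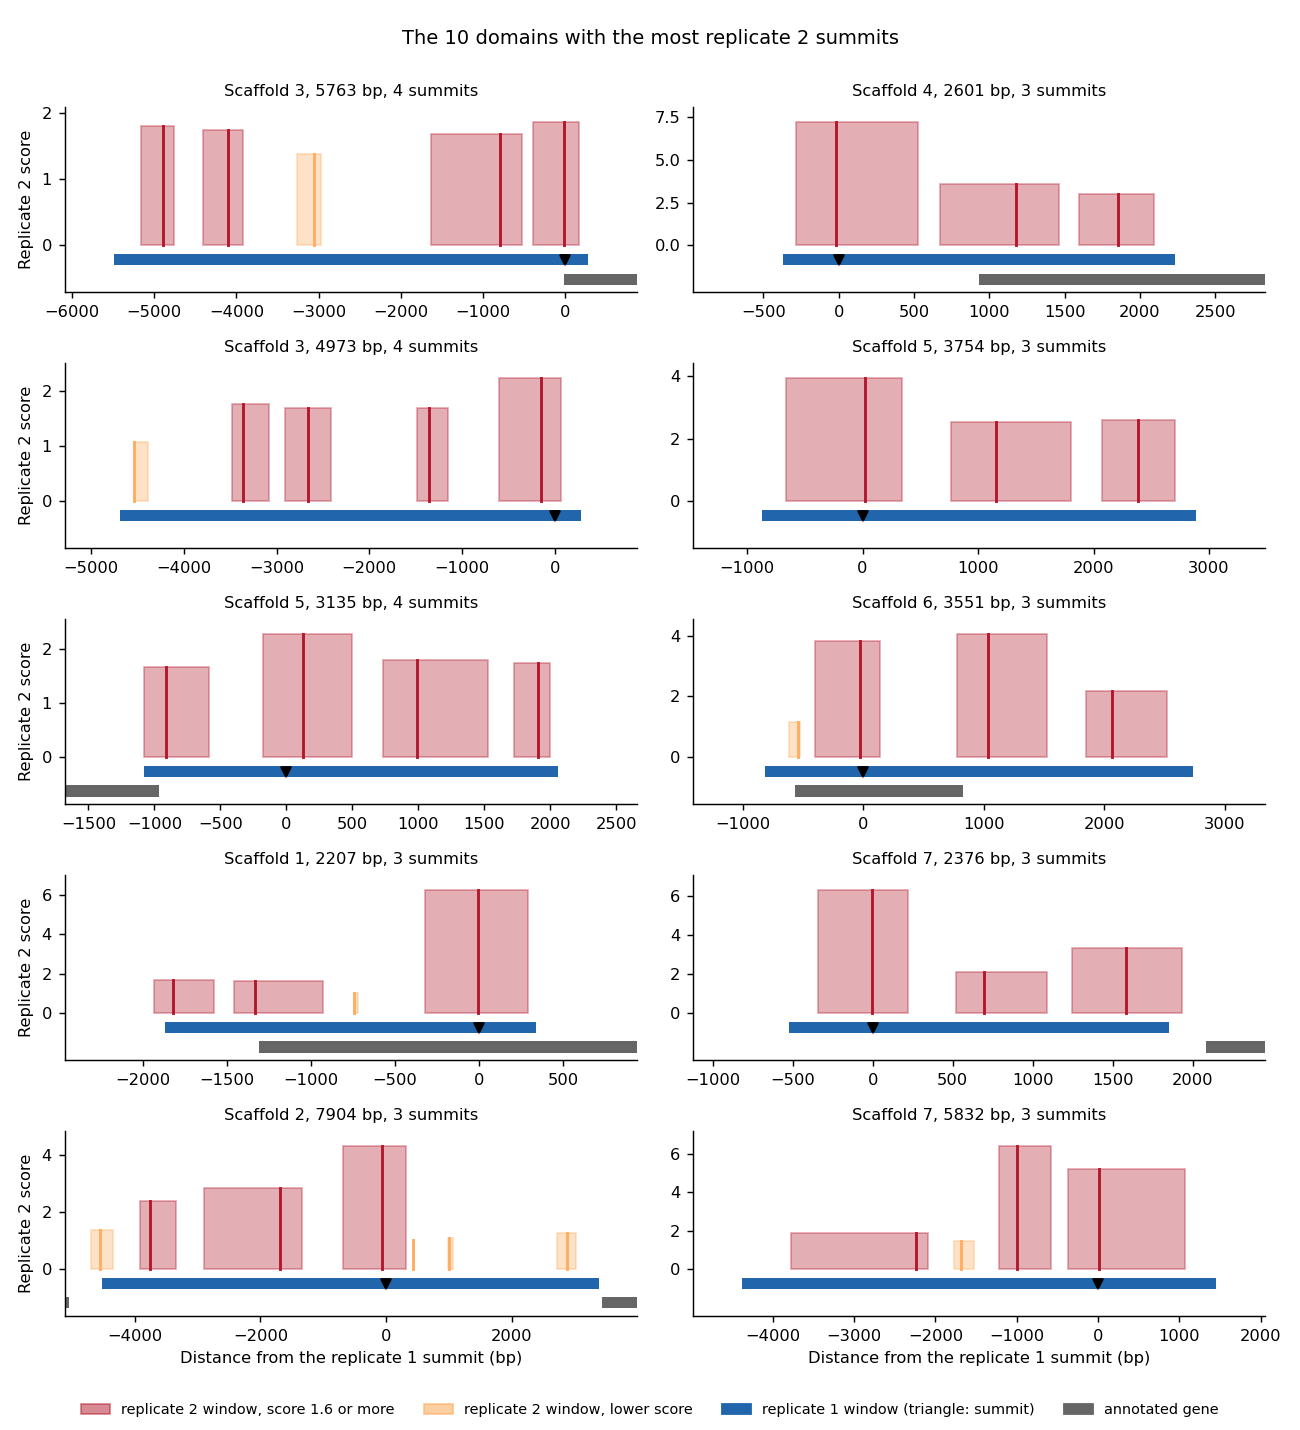
The 10 domains with the most replicate 2 summits, 1 panel each; ties at 3 summits were broken by the highest summed replicate 2 score. The x axis is the distance from the replicate 1 summit in bp and the y axis the replicate 2 score; red boxes are replicate 2 windows of score 1.6 or more, orange boxes weaker ones, vertical lines their summits, the blue bar the replicate 1 window and grey bars annotated genes. The replicate 1 summit falls on the tallest red box in all panels but 2: in the 5832 bp domain of scaffold 7 it falls on the box scoring 5.22 beside the one of 6.44, and in the 3551 bp domain of scaffold 6 on that of 3.82 beside the one of 4.06.

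Few second summits were strong, but the second is by definition no higher than the leading one, so that direction is fixed. A score of 2.78, the lowest among the 2000 strongest replicate 2 windows, was reached by the second summit in 17 of the 352 domains and by the leading summit in 122. Those 2000 are part of 11214 replicate 2 windows with a score of at least 1.6. The count of 17 is not read as particular to these domains. The highest second score belonged to the scaffold 5 domain from 4085442 to 4088539, with 7.42 for the second and 11.83 for the leading summit, 964 bp apart, and 9.75 in replicate 1. Both summits stood outside genes, the second 1553 bp from the long non-coding RNA gene LOC110228090 and the leading one 975 bp from LOC9313141. A further case was on scaffold 1 from 10037259 to 10040373, where the second and leading summits scored 3.94 and 6.44 at a distance of 1544 bp and replicate 1 scored 6.22. They shared the space between LOC9326592 and LOC9326593, each of which the domain touched. The other 3 of the 5 highest second scores are those of the domains on scaffolds 4, 6 and 7 given above with 3.58, 3.82 and 5.22.

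Among the 10 domains with the highest replicate 1 score, the strongest pair were made of 1 tall summit and 1 low one. The scaffold 6 domain from 12536227 to 12538282 scored 27.51 in replicate 1, with a second summit of 1.75 against a leading one of 21.94. On scaffold 1 from 8183562 to 8187392 replicate 1 scored 21.31 and the same pair of scores was 1.75 against 19.74. A second summit of 1.62 stood beside one of 10.84 on scaffold 6 from 22030144 to 22032861, where replicate 1 scored 13.63. In each of these 3 the replicate 1 and leading replicate 2 summits were within 12 bp of each other. The first lay between LOC9308322 and LOC9310405. In the other 2 the leading summit was inside a gene, LOC9326391 and LOC9310838.

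The other 5 domains described here from the 10 of highest replicate 1 score had leading replicate 2 summits further down that library's list than those 3. Ranks are given within each list, and since the lists differ in length a rank in one is not set against a rank in the other. On scaffold 4 from 19454514 to 19458352 replicate 1 scored 15.04, rank 84 of 93693, while the replicate 2 summits scored 1.62, inside LOC9315903, and 2.17, outside it, the higher at rank 3842 of 64504. The scaffold 6 domain from 4756116 to 4758926 scored 13.83 in replicate 1 (rank 104), with replicate 2 summits of 2.11 and 2.23 (rank 3566), both in the space next to LOC9307564. On scaffold 1 from 7901602 to 7905650 the scores were 13.31 in replicate 1 (rank 115) and 1.62, 1.99 and 2.23 (rank 3566) in replicate 2, the middle one inside LOC9326361 and the last between that gene and LOC9326362. On scaffold 7 from 11668182 to 11672198 they were 15.40 in replicate 1 (rank 76) and 3.03 (rank 1621) and 2.42 in replicate 2, both summits inside LOC9304157. The scaffold 1 domain from 8740841 to 8744794 scored 16.12 in replicate 1 (rank 64), and its 2 replicate 2 summits, 4.31 (rank 712) and 1.93, stood on opposite sides of LOC9329173, which the domain held whole. Scores of the libraries are not on a scale known to be shared.

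The other 2 of the 3 longest domains also differed in layout. That on scaffold 2 from 17973120 to 17980331, 7212 bp long with a replicate 1 score of 8.52, had summits of 2.54 and 2.05 at 5817 bp, the widest spacing of all. LOC9323781 lay whole between them and 6 weaker replicate 2 summits stood there too. That on scaffold 5 from 18618696 to 18625582, 6887 bp long with a replicate 1 score of 5.71, had summits of 3.15 and 2.23 only 1115 bp apart, both between LOC9314245 and LOC9314246.

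The position of the replicate 1 summit was not part of the rule and could be set against the replicate 2 order of summits. It lay nearer the leading than the second summit in 238 of the 338 domains with unequal scores (70.4%, interval 65.3 to 75.0%). Where the second summit had less than 0.5 of the leading score, this held in 38 of 42 domains (90.5%, interval 77.9 to 96.2%). The share was 77.0% (69.6 to 83.1%) at ratios of 0.5 to under 0.8 and 58.1% (50.1 to 65.8%) at 0.8 to under 1. The interval of the last class does not overlap those of the others. No test was run, since domains of 1 pair of libraries are not replicates. Over all 352 domains the summit closest to that of replicate 1 was the leading one in 244, the second in 104 and the third in 4.

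Replicate 1 thus put its highest point on or near 1 of the replicate 2 summits in most domains. The nearest replicate 2 summit was within 200 bp of the replicate 1 summit in 270 domains (76.7%, interval 72.0 to 80.8%), against 503 of the 825 broad windows with 1 summit (61.0%, 57.6 to 64.2%). A domain with several summits offers more of them to be near, and with the leading summit alone the shares were 55.4% (50.2 to 60.5%) in multi-summit domains and 61.0% in windows with 1 summit, with overlapping intervals. The order of these shares depended on the distance allowed. Within 50 bp they were 30.7% (26.1 to 35.7%) in multi-summit domains and 25.5% (22.6 to 28.5%) in windows with 1, and within 100 bp 46.6% (41.4 to 51.8%) and 42.5% (39.2 to 45.9%), again with overlapping intervals. Within 500 bp they were 62.2% (57.0 to 67.1%) and 73.9% (70.8 to 76.8%), with intervals apart. The median distance from the replicate 1 to the leading replicate 2 summit was 135.5 bp in multi-summit domains and 130 bp in windows with 1. With a length minimum of 3000 bp it was 326 bp (95% interval of the median 93 to 642 bp) and 138 bp. In 38 domains the replicate 1 summit was over 500 bp from every counted replicate 2 summit. In 54 it lay between the leading and the second summit and over 200 bp from all of them.

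Broad windows were classed by replicate 2 scores. The leading one rose with the replicate 1 score in multi-summit domains and in windows with 1 summit (Spearman's rho 0.60 and 0.51). The classes were not matched for it, so their replicate 1 scores are description only. Over all lengths, multi-summit domains scored higher in replicate 1 than broad windows with 1 summit, which were also shorter, and those higher than windows with none. The medians were 4.04 (95% interval 3.92 to 4.30), 3.47 (3.35 to 3.60) and 2.76 (2.70 to 2.83) in that order. From 2000 to under 2500 bp they were 3.72 (3.53 to 4.04), 3.40 (3.28 to 3.53) and 2.64 (2.57 to 2.70). From 2500 to under 3000 bp they were 3.72 (3.47 to 4.30), 3.40 (3.28 to 3.66) and 2.795 (2.64 to 2.89). From 3000 to under 3500 bp they were 4.465, 3.66 and 3.245, and from 3500 to under 4000 bp 4.73, 3.63 and 3.595. The intervals of multi-summit and single-summit windows overlapped in all bands but the first, where they met at 3.53. At 4000 bp and more the order was turned round between them, with 4.49 (3.98 to 6.19) in 41 multi-summit domains and 5.32 (4.30 to 6.35) in 37 windows with 1, and 4.24 in windows with none. The leading replicate 2 summit likewise had a median of 2.48 in multi-summit domains and 1.99 in windows with 1, a direction that the rule favours, since the highest of several scores is taken. The 2000 strongest of all 93693 replicate 1 windows began at a score of 4.36. They included 150 of the 352 multi-summit domains (42.6% of the domains, interval 37.6 to 47.8%). They also included 242 of the 825 windows with 1 summit (29.3%, 26.3 to 32.5%) and 62 of the 617 with none (10.0%, 7.9 to 12.7%). A rank of 2000 or better in both libraries was held by 89 domains (25.3%), against 125 windows with 1 summit (15.2%). Neither library ranked 169 of the 352 domains that high. The replicate 2 rank is that of the leading summit, so the rule favours the domains here too. In these counts the groups were not matched for length.

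Domains and single-summit windows overlapped widely in these scores. The replicate 1 score ranged from 1.99 to 27.51 in multi-summit domains and from 1.79 to 35.69 in windows with 1 summit. Across domains, Spearman's rho between the replicate 1 score and the leading replicate 2 score was 0.60 in the 352 multi-summit domains and 0.51 in the 825 windows with 1. With the second summit in place of the leading one it was 0.31. These are descriptions over windows that share their libraries. The 3 single-summit windows of highest replicate 1 score show the same spread. That on scaffold 4 from 2325739 to 2328202 scored 35.69 in replicate 1 and 13.70 in replicate 2, overlapping LOC9314784 and the long non-coding RNA gene LOC9316611 with the summits of both libraries between them. The one on scaffold 4 from 434840 to 437414 scored 21.54 in replicate 1 and 4.19 in replicate 2. It held LOC9314632 whole, with the replicate 1 summit inside that gene and the replicate 2 summit 199 bp outside it. The one on scaffold 1 from 3463138 to 3465649 scored 17.79 in replicate 1 and 2.48 in replicate 2, with the summit of the second library inside LOC9328542. The longest window with 1 summit, 7299 bp on scaffold 2 from 18571058 to 18578356, scored 15.94 in replicate 1 and 1.81 in replicate 2 and lay almost wholly in the long non-coding RNA gene LOC9325301. It overlapped 9 replicate 2 windows of any score.

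**Figure D4:**
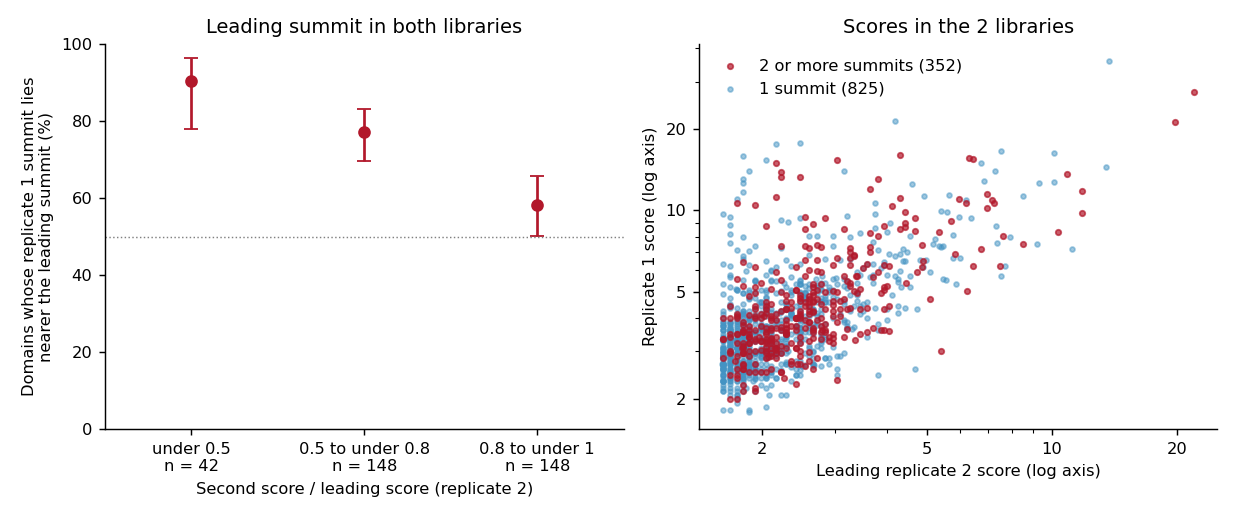
Left, share of domains (y axis, %) whose replicate 1 summit was nearer the leading than the second replicate 2 summit, by the ratio of their scores; points are shares, bars 95% Wilson intervals and the dotted line marks equal shares. It was 90.5, 77.0 and 58.1% in the 3 classes. Right, replicate 1 score against leading replicate 2 score on log axes for 352 multi-summit domains (red) and 825 broad windows with 1 summit (blue); the clouds overlap over most of the range.

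Neighbouring summits of a domain mostly shared 1 space between genes, but no share was computed for other pairs equally far apart. Taken singly, the leading summit was inside a gene in only 18.5% of domains and the second in 17.0%. The share of pairs is therefore not read as particular to these domains. Gene positions came from a RefSeq table of A. lyrata that gives no strand and no scaffold, so each gene was put on a scaffold by its place in the table. Of 400 pairs of neighbouring summits, 293 (73.25%, interval 68.7 to 77.4%) stood outside genes in the same space. In 69 pairs (17.25%) 1 summit was inside a gene and 1 outside, and in 28 (7.00%) both were inside the same gene or the same run of overlapping genes. Only 7 pairs (1.75%) stood on opposite sides of a gene, in each case 1 gene, with a median length of 1356 bp, of which 6 were protein-coding. The remaining 3 were inside different genes. Pairs in the same space were a median of 1177 bp apart, those on opposite sides of a gene 2291 bp and those inside 1 gene 1015 bp.

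**Figure D5:**
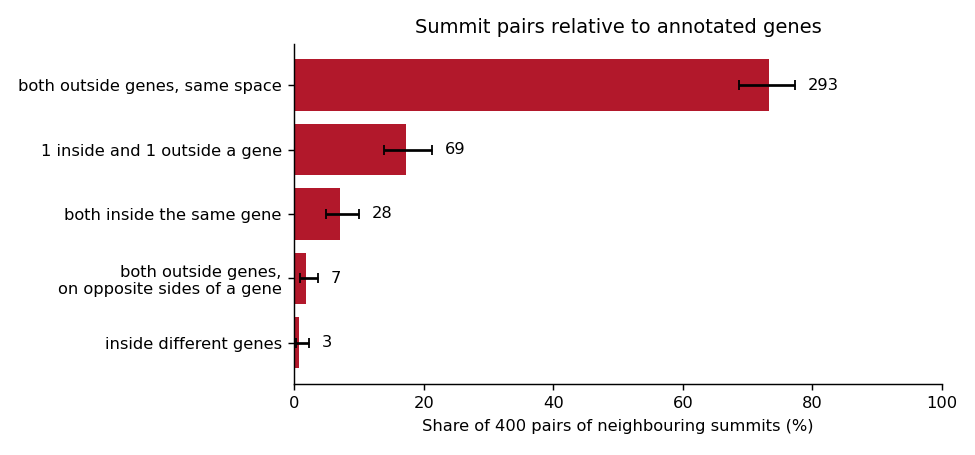
Share of the 400 pairs of neighbouring replicate 2 summits (x axis, %) by their position relative to annotated genes, with 95% Wilson intervals and the number of pairs beside each bar. The 293 pairs outside genes in the same space make up 73.25%, with no share of other pairs to set beside it.

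The share of domains that reached into genes did not stand apart from that of broad windows with 1 summit. A gene was overlapped by 211 multi-summit domains (59.9%, interval 54.7 to 64.9%) and 475 windows with 1 summit (57.6%, 54.2 to 60.9%), and a protein-coding gene by 199 domains and 454 windows. Genes took up 19.3% of the summed length of multi-summit domains, 20.9% of that of single-summit windows and 30.3% of that of broad windows with none, against 41.2% of the scaffolds. Of the domains, 15 lay wholly inside genes. The replicate 1 summit was inside a gene in 77 domains (21.9%, 17.9 to 26.5%) and in 133 windows with 1 summit (16.1%, 13.8 to 18.8%), with overlapping intervals. In the 617 broad windows with none it was inside a gene in 137 (22.2%, 19.1 to 25.7%), close to the share of the domains. Windows with none were not split by length here, so summits inside genes are not read as particular to the domains. At 2000 to under 2500 bp the shares were 23.2% of 125 domains (16.7 to 31.3%) and 11.5% of 462 windows (8.88 to 14.7%), with intervals apart. At 2500 bp and more they were 21.1% of 227 domains (16.3 to 26.9%) and 22.0% of 363 windows (18.1 to 26.6%), so the difference was seen in the shortest band and not above it. The leading replicate 2 summit was inside a gene in 18.5% of domains (14.8 to 22.9%) and in 13.8% of windows with 1 summit (11.6 to 16.3%), and the second summit of a domain in 17.0%.

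Replicate 1 summits outside genes were a median of 1520 bp from the nearest gene end in the 275 multi-summit domains concerned and 1382.5 bp in the 692 windows with 1 summit. Such summits within 1000 bp of a gene end made up 27.6% of all domains (23.2 to 32.4%) and 31.4% of all windows with 1 summit (28.3 to 34.6%), with overlapping intervals. The table gives no strand, so upstream and downstream of a gene are pooled here.

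The domains were spread over all large scaffolds. Their share among broad windows ran from 16.3% on scaffold 3 (34 of 209, interval 11.9 to 21.9%) to 24.2% on scaffold 8 (40 of 165, 18.3 to 31.3%), with overlapping intervals, and the small scaffold 9 had 1 domain among 8 broad windows. Scaffold 2 held 2.33 domains per Mb and scaffold 3 held 1.39.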

How the data were processed

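Per the file headers, the authors' deposited lists give 1 score per window with its start, end and summit. For the score's formula, the aligner and the peak caller, no name or setting was found in the labels or the lists. The submitters' processing notes name CASAVA, and the file names carry the build Araly1. Windows were called per library by the authors. The input library has no list here, and both lists may rest on it. The A. thaliana list was not used here.

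The window lists were read in Python 3.11.15 with pandas 2.3.3, and intervals were computed with scipy 1.17.1. Intervals of medians are exact binomial ones from order statistics. Functions were tested on simulated windows. Of 34221 genes of unknown scaffold in the RefSeq table of assembly version 1, the first 9 blocks of rising start, 33239 genes, were taken as scaffolds 1 to 9. Block and window ends differed by at most 31587 bp. Of 2455 replicate 2 summits outside the domains with a score of at least 2.5, 22.2% were inside genes of their own block, against 39.1 to 42.9% in other blocks. Gene positions rest on both builds being the same assembly.

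The members, the measures and the rule for named regions were chosen with earlier results of these data known. That rule took the 10 domains with the most summits (ties broken by the summed replicate 2 score), the 10 of highest replicate 1 score, the 5 of highest second score and the 3 longest, which are 22 domains, and 4 single-summit windows. Gene classes were not named, since the table holds no product names. No hypothesis test was run: there is 1 library on each side, and windows are not replicates.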

Additional observations from a re-analysis of the deposited data

How the results depend on the processing

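Of 67 values under other settings, 38 stayed within the interval of the reported value, or within 1.5 times for the count, and 29 moved. Over all lengths together, none of the differences between multi-summit and single-summit scores changed sign under these settings, but at 4000 bp and more the median replicate 1 score was 4.49 in multi-summit domains and 5.32 in windows with 1. The count follows the limits of the rule. It was 227 and 128 domains at a length minimum of 2500 and 3000 bp, and 1213, 93 and 13 at a score minimum of 1.2, 2 and 3. With the libraries swapped, 6 of 34 broad replicate 2 windows held 2 or more replicate 1 windows. The share of broad windows was 12.0, 27.3 and 32.5% at 1500, 2500 and 3000 bp, 67.6, 5.18 and 0.725% at those score minimums, and 17.0% with replicate 2 windows under 200 bp apart joined. Median spacing was 1090, 1265.5 and 1401 bp at the 3 lengths, 931 and 1266.5 bp at score minimums of 1.2 and 3, 1276 bp with windows joined and 1301 bp with libraries swapped. The median replicate 1 score of the domains was 4.62 at 3000 bp, 3.41, 5 and 6.98 at the 3 score minimums, and 3.72 in windows of 2000 to under 2500 bp alone. The median distance from the replicate 1 to the leading summit was 326 bp at 3000 bp, and 80 and 29 bp at score minimums of 2 and 3, against 138, 89 and 48 bp in windows with 1 summit. The share overlapping a gene was 67.2% at 3000 bp. The limits of each setting change which windows are counted; beyond that the cause was not tested. The ratio of second to leading score stayed between 0.777 and 0.811 under every setting run for it. The highest value came from the 13 domains at a score minimum of 3, with an interval of 0.494 to 0.928. Each score minimum bounds the ratio from below, so the rule sets part of this steadiness. No paired analysis was possible because only the ChIP libraries have window lists here, and without either of them the rule cannot be applied. Read depth is unknown, so summits that a deeper replicate 2 library would add cannot be counted.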

Other observations

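Some multi-summit domains lay close together. Of 343 distances between neighbouring domains of a scaffold, 4 were at most 1000 bp and 15 at most 10000 bp, against a median of 253604 bp. No such count was made for other broad windows, so closeness is not read as particular to these domains. On scaffold 4, the domains from 19248677 to 19251926 and from 19252190 to 19254835 were separated by 263 bp. They scored 5.04 and 3.08 in replicate 1, with leading replicate 2 summits of 3.33 and 2.11. A group of 4 domains stood on the same scaffold between 21897416 and 21921465, with gaps of 10060, 752 and 3343 bp. These places were chosen after their values were seen. The nearest replicate 1 window of any length was a median of 283 bp from the edge of a multi-summit domain and 263 bp from that of a broad window with 1 summit.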
